A study of Mus musculus with 4 samples.

Results

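The integrated stress response and the unfolded protein response were followed through 41 genes, taken by symbol from the 21834 genes of the deposited count table. The list was divided by role into 20 genes of the ATF4 arm and 21 genes of the ER chaperone arm. Each symbol had a row in the table, and Ddit3 had a second row (ENSMUSG00000116429) with no count in any library, so 42 rows were read. The genes were listed by known role, with earlier results of these data known, and all 41 passed the filter on low counts, as did 11448 genes in all.

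RNA was sequenced from bone marrow derived monocytes of Mus musculus after 3 days with RANKL, a cytokine that drives such precursors to become osteoclasts, the cells that resorb bone. The labels give a Nat10 conditional knockout genotype (cKO) to 2 libraries and WT to the other 2, and all 4 received the same osteoclast differentiation and, before lysis, a wash with 100 µg/mL cycloheximide, which stops ribosomes on mRNA. In the text the former are called cKO-labelled. The product of Nat10 acetylates cytidines in RNA, and the study asked how its loss changes osteoclast differentiation. The Cre driver, the age and sex of the mice, and whether both replicates of a genotype are different mice were not stated in the labels. The p-values then reflect the spread between the 4 libraries only, and that spread may be technical.

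In the integrated stress response, kinases sense viral RNA, haem shortage, amino acid shortage or misfolded protein in the endoplasmic reticulum (ER) and phosphorylate the initiation factor eIF2alpha. General translation then slows, while the mRNA of the transcription factor ATF4 is translated better and ATF4 raises genes of amino acid supply and of feedback. In the unfolded protein response, the ER sensors PERK, IRE1alpha and ATF6 react to misfolded protein, and ATF6 and the spliced form of XBP1 raise chaperones and degradation factors. Osteoclasts and their precursors secrete large amounts of protease and acid phosphatase through the ER. These libraries measure the amount of RNA per gene, so phosphorylation of eIF2alpha, translation of Atf4, splicing of Xbp1 and cleavage of ATF6 were not analysed here.

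DNA elements known to bind these factors were looked up in RefSeq promoter windows of the GRCm38.p6 build, 250 bases before to 50 after the annotated start, which were at hand for 36 of the 41 genes (40 windows, since some genes have more than 1). The searched letters, on both strands, were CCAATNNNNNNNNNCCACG for the ER stress response element (ERSE), ATTGGNCCACG for its second form (ERSE-II), TGATGNAA for the CEBP-ATF response element (CARE) and TGACGTG for the core of the UPR element. Of all 32851 windows in the reference, 0.119% held the ERSE, 0.0365% the ERSE-II, 3.97% the CARE and 2.01% the UPR element core. Among the listed genes, the ERSE was in windows of 8 genes, the ERSE-II in 2, the CARE in 5 and the UPR element core in 1, with no overlap between matches of different elements. A match is a description of the letters and not a measured binding site. Positions are counted from the annotated start, with -1 as the last base before it.

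The ERSE matches are shown because of the elements searched this one was found in the largest number of listed genes, 8, each of them in the ER chaperone arm. Each is written along the strand that reads CCAAT first, with the fixed letters in capitals and the spacer in lower case.
Hspa5: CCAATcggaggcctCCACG
Calr: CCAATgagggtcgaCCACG
Pdia6: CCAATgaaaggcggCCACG
Canx: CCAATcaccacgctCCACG
Creld2: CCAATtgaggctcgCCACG
Dnajc3: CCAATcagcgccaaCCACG
Hsp90b1, upstream copy: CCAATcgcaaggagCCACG
Hsp90b1, downstream copy: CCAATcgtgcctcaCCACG
Syvn1: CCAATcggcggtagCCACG
The matches of Calr, Creld2 and the downstream copy of Hsp90b1 lie on the strand opposite to the gene. All 9 copies lay before the start, from -212 in Hsp90b1 to -26 in Syvn1, and the spacers differed from gene to gene.

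Longer stretches are shown for called genes with a match, read along the strand of the gene, with the fixed letters of each match in capitals. Vldlr, Trib3, Herpud1 and Pdia6 had the smallest p-values among those genes, and Hspa5 and Calr were added after their values were seen, as widely used readouts of the pathway. In Herpud1 the CARE lies on the opposite strand and the ERSE-II on the strand of the gene.
Vldlr (chr19:27216785-27216862, plus strand, -235 to -158, CARE on the opposite strand): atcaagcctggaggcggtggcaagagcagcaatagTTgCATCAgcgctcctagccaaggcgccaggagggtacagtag
Trib3 (chr2:152344028-152344057, minus strand, 4 to 33, CARE on the opposite strand): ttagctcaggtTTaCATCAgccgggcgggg
Herpud1 (chr8:94386282-94386422, plus strand, -147 to -7, CARE then ERSE-II): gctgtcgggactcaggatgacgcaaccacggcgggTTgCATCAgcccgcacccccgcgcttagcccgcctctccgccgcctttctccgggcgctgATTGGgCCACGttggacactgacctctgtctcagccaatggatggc
Pdia6 (chr12:17266456-17266544, plus strand, -133 to -45, ERSE): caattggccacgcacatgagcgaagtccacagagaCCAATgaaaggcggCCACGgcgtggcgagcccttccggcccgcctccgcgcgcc
Hspa5 (chr2:34771898-34772078, plus strand, -192 to -12, UPR element core then ERSE): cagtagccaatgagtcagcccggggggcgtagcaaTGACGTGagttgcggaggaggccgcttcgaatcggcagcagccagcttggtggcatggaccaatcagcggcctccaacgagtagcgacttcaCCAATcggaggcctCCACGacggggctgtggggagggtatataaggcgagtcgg
Calr (chr8:84847040-84847128, minus strand, -197 to -109, ERSE on the opposite strand): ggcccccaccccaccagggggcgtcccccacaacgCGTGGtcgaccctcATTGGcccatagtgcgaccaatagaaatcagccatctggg

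**Figure D1:**
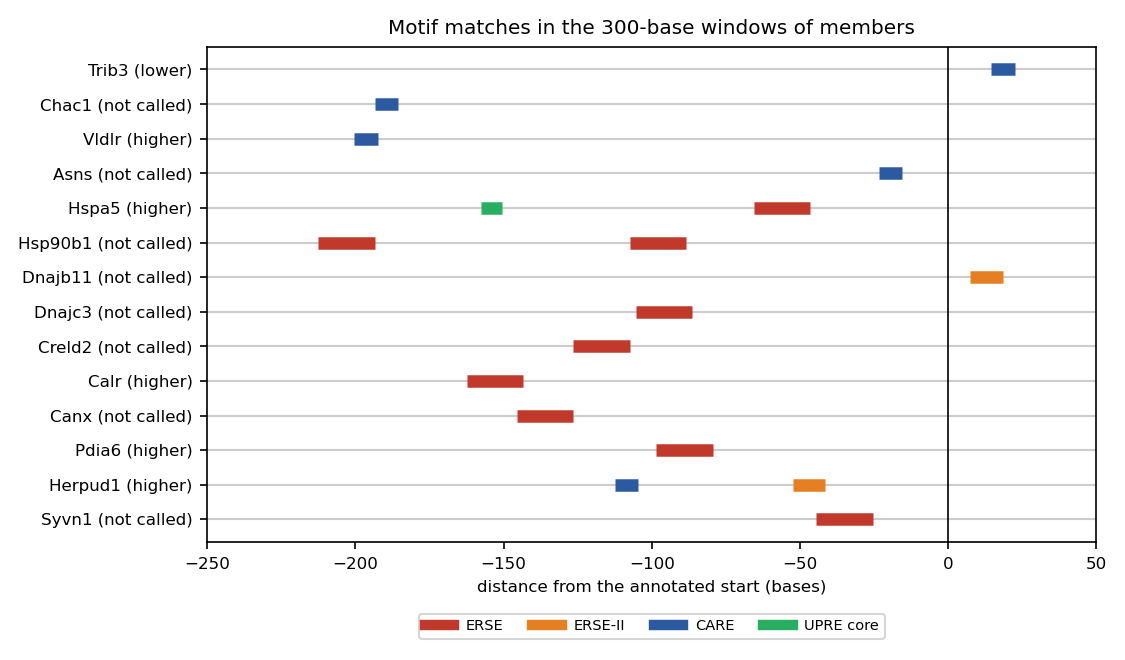
Motif matches in the 300-base promoter windows of 14 listed genes, by distance from the annotated start in bases. Colours mark the element, and the word after each gene is its call in the comparison of cKO-labelled libraries with WT. The ERSE matches lie before the start in all 8 genes that hold one.

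Total counts ran from 10037338 to 14097638 per library. Levels are CPM, the counts scaled to library size with TMM factors. Each fold change is on the log2 scale, cKO-labelled minus WT, and its SE is the standard error in the edgeR fit. A gene is called, and said to have risen or fallen, where the adjusted p of edgeR's quasi-likelihood test, over all 11448 genes, was under 0.05. Over all tested genes, 28.8% were called, 14.4% as higher and 14.4% as lower, and the median log2 fold change was 0.01. The targeted gene Nat10 had 15.9 and 14.3 CPM in the cKO-labelled libraries and 16.8 and 18.6 CPM in WT. The difference of -0.24 (SE 0.153, edgeR adjusted p = 0.263) did not pass the test, so every direction given here rests on the labels. Markers of osteoclasts were present in all libraries, with 10 of 10 listed markers tested.

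In the ER chaperone arm, 9 of 21 genes (42.9%, against 14.4% of all tested genes) rose in the cKO-labelled libraries and 1 (4.76%) fell, with a median log2 fold change of 0.22, which was 0.13 without WT replicate 2. In the ATF4 arm, 6 of 20 genes (30%, against 14.4%) fell and 1 (5%) rose, with a median of -0.09. With upper-quartile scaling the median of the arm was 0.01, where that of all tested genes was 0.11. Both cKO-labelled libraries lay above both WT libraries, or below them, in 63.6% of all tested genes (32.3% above and 31.3% below). In the ER chaperone arm 12 of 21 genes lay above and 4 below, and in the ATF4 arm 6 of 20 lay above and 10 below. Among the 7856 tested genes with a mean of at least 10 CPM, a level that 40 of the 41 genes reached, 12.5% were higher and 18.8% lower. Without WT replicate 2, the ER chaperone arm counted 4 rises and the ATF4 arm 3 falls, where 7.36% of all genes tested in that fit were higher and 8.29% lower. Without WT replicate 1 these counts were 6 and 5, where 8.94% of all genes were higher and 8.53% lower. The single fall of the ER chaperone arm was not called without either WT library and became 2 without cKO replicate 1. In the ATF4 arm, 3 genes were higher without cKO replicate 2 and 2 without WT replicate 2.

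**Figure D2:**
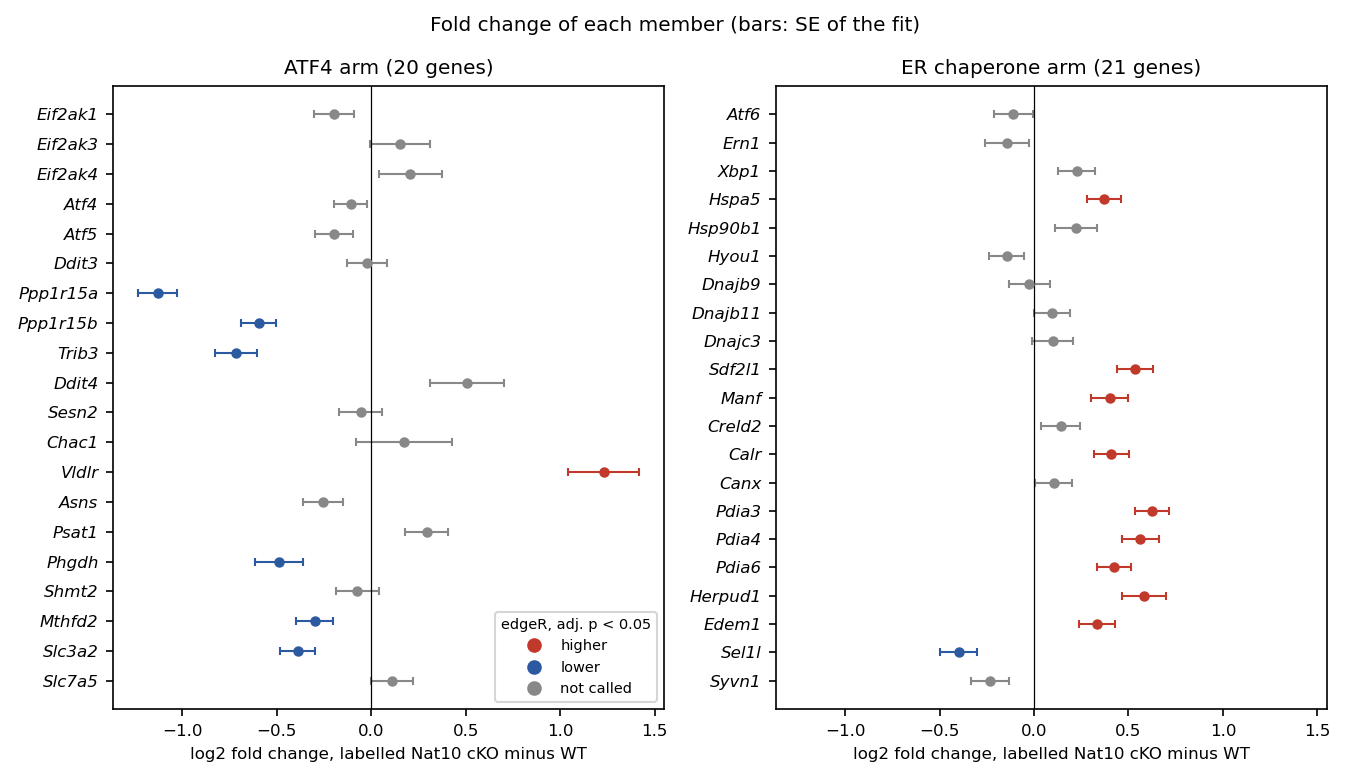
Log2 fold change (labelled Nat10 cKO minus WT) of each gene of the ATF4 arm (left, 20 genes) and the ER chaperone arm (right, 21 genes), with bars for the SE of the fit and colours for the edgeR call. In the right panel 9 genes are called higher and 1 lower, and in the left panel 1 is called higher and 6 lower.

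**Figure D3:**
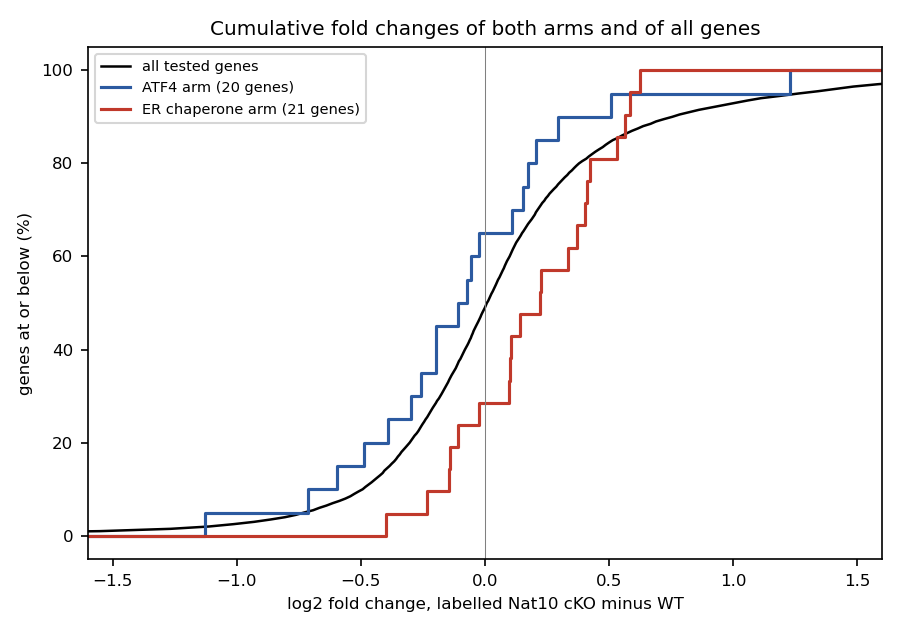
Share of genes, in percent, at or below each log2 fold change for the ATF4 arm, the ER chaperone arm and all 11448 tested genes. The curve of the ER chaperone arm lies to the right of that of all genes around its median of 0.22, while the ATF4 arm has a median of -0.09 and a left tail down to -1.13.

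In the ATF4 arm, the 3 listed kinases that phosphorylate eIF2alpha did not pass the test. A further such kinase, Eif2ak2, was not in the arm as listed and fell (-0.93, given below). Eif2ak3, which encodes the ER sensor PERK, had 15.4 and 15.3 CPM in the cKO-labelled libraries and 14.5 and 13.2 CPM in WT. The difference of 0.15 did not pass (SE 0.158, edgeR adjusted p = 0.517), with groups that did not overlap. Eif2ak4, the amino acid sensor GCN2, was at 0.21 (adjusted p = 0.387), and Eif2ak1, the haem-regulated kinase, at -0.20 (adjusted p = 0.189). Without cKO replicate 2, Eif2ak1 was called lower (-0.30, adjusted p = 0.0485), while it was at -0.11 without cKO replicate 1 (adjusted p = 0.501) and -0.10 with upper-quartile scaling.

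The transcription factors of the arm did not pass either. Atf4 (ENSMUSG00000042406, chromosome 15, 80139385 to 80141742 on GRCm39) had 623 and 614 CPM in the cKO-labelled libraries and 655 and 678 CPM in WT. The groups did not overlap, but they lay close, at -0.11 on the log2 scale (SE 0.0898, edgeR adjusted p = 0.401). The 95% interval ran from -0.30 to 0.08. Ddit3, which encodes the pro-apoptotic factor CHOP, had 64.4 and 59.0 CPM against 61.9 and 63.5 CPM in WT. Its groups overlapped, and its log2 fold change of -0.02 (95% interval -0.25 to 0.20, adjusted p = 0.892) was positive with upper-quartile scaling (0.07), with library size only (0.04) and without cKO replicate 2 (0.04). Atf5, a related factor of the arm, was at -0.20 (adjusted p = 0.152). In the deposited coordinates Ddit3 overlaps Mars1 on the other strand, and Atf5 overlaps Nup62 and Il4i1, so reads of these pairs could be counted under either gene where counting ignored strand, which the sources used here do not state.

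The genes grouped as feedback inhibitors showed the largest falls of the arm, with 3 of 3 lower, though Ppp1r15b is a constitutive inhibitor. Ppp1r15a (ENSMUSG00000040435, chromosome 7, 45172340 to 45175692), which encodes GADD34, the stress-induced subunit that directs a phosphatase to eIF2alpha, had 136 and 116 CPM in the cKO-labelled libraries. In WT it had 266 and 284 CPM. Both cKO-labelled libraries were under the lower WT library by a wide margin, and Ppp1r15a fell by 1.13 on the log2 scale (SE 0.103, edgeR adjusted p = 1.70e-07).

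Ppp1r15b encodes CReP, the constitutive partner of the same phosphatase. It had 169 and 166 CPM in the cKO-labelled libraries and 251 and 256 CPM in WT, and fell by 0.60 (SE 0.0938, edgeR adjusted p = 9.47e-05). Trib3, a pseudokinase induced by ATF4 and CHOP that restrains ATF4, had 47.0 and 44.0 CPM against 69.6 and 79.4 CPM. It fell by 0.71 (SE 0.111, edgeR adjusted p = 8.15e-05). In each of these genes the replicates lay closer to each other than to the other group, and in the 10 alternative fits the calls held, with log2 fold changes from -1.26 to -1.02 for Ppp1r15a, -0.62 to -0.50 for Ppp1r15b and -0.81 to -0.62 for Trib3.

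Among the stress effectors, Vldlr rose and the others did not pass. Vldlr, the receptor for very low density lipoprotein and a known target of the PERK and ATF4 pathway, had 14.7 and 13.9 CPM in the cKO-labelled libraries. In WT it had 6.33 and 5.87 CPM, which gives a log2 fold change of 1.23 (SE 0.187, edgeR adjusted p = 6.75e-05). It held its call in the 10 alternative fits (1.16 to 1.33), and its promoter holds the CARE match shown above. The CARE was in 3.97% of all windows. Of the other listed genes with a CARE match, Herpud1 rose (0.58), Trib3 fell (-0.71), and Asns (-0.26) and Chac1 did not pass. Chac1, which degrades glutathione and carries the same element, was at 0.18 (adjusted p = 0.657) at a level near 5 CPM, the lowest of the listed genes.

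Ddit4, the inhibitor of mTORC1 also called REDD1, was at 0.51 (SE 0.197, edgeR adjusted p = 0.0610). It had 13.9 and 12.5 CPM against 7.35 and 10.97 CPM in WT, with groups that did not overlap. It was called higher without WT replicate 2 (0.83, adjusted p = 0.0235), without cKO replicate 2 (0.58, adjusted p = 0.0326), with upper-quartile scaling (0.60), with library size only (0.57) and with no filter on low counts (0.51). Ddit4 was not called without WT replicate 1 (0.26, adjusted p = 0.482), without cKO replicate 1 (0.42, adjusted p = 0.135) or in DESeq2 (adjusted p = 0.268). Sesn2, another stress-induced inhibitor of mTORC1, was at -0.06 (adjusted p = 0.765), with a positive value under upper-quartile scaling (0.04), library size only (0.01) and without cKO replicate 2 (0.02).

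Of the 7 genes of amino acid and one-carbon supply, which ATF4 is known to raise, 3 fell and 0 rose. Slc3a2, the heavy chain shared by several amino acid exchangers, had 606 and 667 CPM in the cKO-labelled libraries and 806 and 862 CPM in WT. It fell by 0.39 (SE 0.0937, edgeR adjusted p = 0.00420). Its partner Slc7a5, the light chain of the leucine transporter, did not follow and was at 0.11 (adjusted p = 0.498).

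Phgdh, the first enzyme of serine synthesis, had 25.1 and 23.1 CPM in the cKO-labelled libraries and 32.2 and 35.1 CPM in WT and fell by 0.49 (SE 0.127, edgeR adjusted p = 0.00728). Psat1, the next enzyme, was at 0.29 (adjusted p = 0.0598) and did not pass, with both cKO-labelled libraries above WT. With 1 library left out Psat1 ran from 0.22 to 0.36, and it was called higher without cKO replicate 2 (0.36, adjusted p = 0.0315), with upper-quartile scaling (0.39) and with library size only (0.36).

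Mthfd2, the mitochondrial folate enzyme, had 168 and 156 CPM in the cKO-labelled libraries and 206 and 193 CPM in WT and fell by 0.30 (SE 0.0973, edgeR adjusted p = 0.0278). Its call ended when cKO replicate 2 (-0.25), WT replicate 1 (-0.25) or WT replicate 2 (-0.35) was left out, with upper-quartile scaling (-0.20) and with library size only (-0.23). Leaving out WT replicate 2 also ended the calls of Phgdh (-0.43, adjusted p = 0.101) and Slc3a2 (-0.35, adjusted p = 0.120). Asns, asparagine synthetase, was at -0.26 (adjusted p = 0.0750) and was called lower without cKO replicate 2 (-0.31, adjusted p = 0.0350), and at -0.19 without WT replicate 2 (adjusted p = 0.456) and -0.16 with upper-quartile scaling. Shmt2, the mitochondrial serine hydroxymethyltransferase, was at -0.07 (adjusted p = 0.678), with 0.03 under upper-quartile scaling and 0.02 without WT replicate 2.

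**Figure D4:**
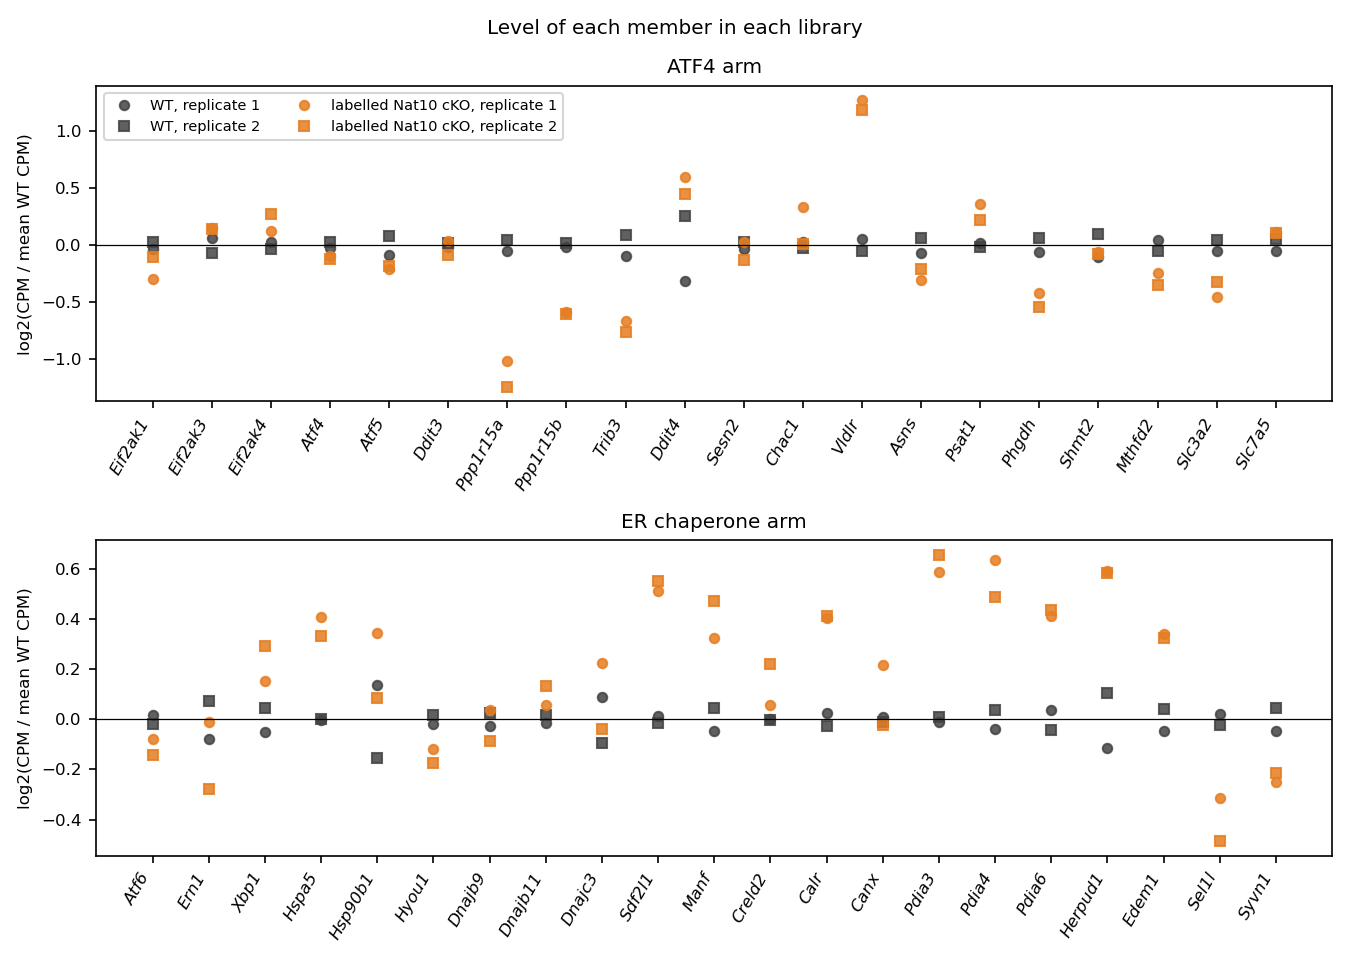
Level of each gene in each library as log2 of CPM over the mean WT CPM, for the ATF4 arm (top) and the ER chaperone arm (bottom), with circles for replicate 1 and squares for replicate 2. Both cKO-labelled libraries lie below both WT libraries for Ppp1r15a, Ppp1r15b and Trib3 and above them for Pdia3, Pdia4, Sdf2l1 and Herpud1.

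In the ER chaperone arm, the sensors and their transcription factors did not pass. Atf6, the membrane-bound sensor that becomes a transcription factor when cleaved, had 76.9 and 73.6 CPM in the cKO-labelled libraries and 82.3 and 80.1 CPM in WT (-0.11, SE 0.102, edgeR adjusted p = 0.467). Ern1, which encodes the sensor IRE1alpha, had 71.3 and 59.3 CPM against 68.1 and 75.7 CPM, with overlapping groups (-0.14, adjusted p = 0.388). Without cKO replicate 1, Ern1 was called lower (-0.29, adjusted p = 0.0477), while it was at -0.02 without cKO replicate 2 (adjusted p = 0.944), -0.07 without WT replicate 2 and -0.22 without WT replicate 1.

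Xbp1 encodes the transcription factor whose mRNA IRE1alpha splices. It had 145 and 160 CPM in the cKO-labelled libraries and 126 and 135 CPM in WT. The groups did not overlap, and the log2 fold change of 0.23 (SE 0.100, edgeR adjusted p = 0.103) did not pass. It was called higher without cKO replicate 1 (0.28, adjusted p = 0.0231), with upper-quartile scaling (0.32) and with library size only (0.29). Without cKO replicate 2 Xbp1 was at 0.15 (adjusted p = 0.334), and leaving out either WT library made no call.

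Of the 9 chaperones and co-chaperones, 3 rose and 0 fell. Hspa5 (ENSMUSG00000026864, chromosome 2, 34661982 to 34667559), which encodes BiP, the Hsp70 chaperone of the ER and the usual readout of the unfolded protein response, had 957 and 908 CPM in the cKO-labelled libraries. In WT it had 721 and 721 CPM, and it rose by 0.37 (SE 0.0904, edgeR adjusted p = 0.00459). Its WT replicates were closer to each other than those of the other group, and no library broke the order.

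Sdf2l1, a partner of the BiP cycle, had 170 and 175 CPM against 120 and 118 CPM in WT and rose by 0.53 (SE 0.0967, edgeR adjusted p = 0.000384). Manf, a secreted ER protein that binds BiP, had 221 and 245 CPM against 171 and 182 CPM and rose by 0.40 (SE 0.0979, edgeR adjusted p = 0.00462). In the deposited coordinates Manf overlaps Rbm15b on the same strand and Dcaf1 on the other. The calls of Hspa5 (0.37 and 0.36, adjusted p = 0.102 and 0.111) and Manf (0.35 and 0.44, adjusted p = 0.126 and 0.0631) ended without WT replicate 1 and without WT replicate 2, while that of Sdf2l1 held in the 10 alternative fits.

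Hsp90b1 encodes GRP94, the Hsp90 of the ER, and was the gene with the most counts of the group. It had 1705 and 1425 CPM in the cKO-labelled libraries and 1478 and 1208 CPM in WT, so replicate 1 was the higher library in both groups and the groups overlapped. At 0.22 on the log2 scale (SE 0.111, edgeR adjusted p = 0.148) Hsp90b1 did not pass. It was called higher without cKO replicate 2 (0.34, adjusted p = 0.00257) and with upper-quartile scaling (0.32, adjusted p = 0.0434). Without cKO replicate 1 Hsp90b1 was at 0.08 (adjusted p = 0.551) and without WT replicate 2 at 0.07 (adjusted p = 0.803). Creld2 (0.14), Dnajc3 (0.10) and Dnajb11 (0.10), all ER-resident folding or redox factors, did not pass, nor did Dnajb9 (-0.02) and the exchange factor Hyou1 (-0.15). The sign of Dnajb9 was positive with upper-quartile scaling (0.07), with library size only (0.04) and without cKO replicate 2 (0.04), and that of Dnajc3 was negative without cKO replicate 1 (-0.05).

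The lectin chaperones and disulfide isomerases held the largest share of rises, with 4 of 5 genes higher and 0 lower. Pdia3 (ENSMUSG00000027248, chromosome 2, 121244256 to 121269168), which encodes ERp57, the isomerase that works with calreticulin and calnexin on glycoproteins, had 849 and 891 CPM in the cKO-labelled libraries. In WT it had 561 and 568 CPM, and it rose by 0.62 (SE 0.0906, edgeR adjusted p = 4.13e-05), with both groups tight and far apart.

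Pdia4 had 202 and 182 CPM against 126 and 133 CPM in WT and rose by 0.56 (SE 0.0997, edgeR adjusted p = 0.000307). Pdia6, an isomerase that also dampens the IRE1alpha and PERK sensors, had 488 and 496 CPM against 376 and 356 CPM and rose by 0.42 (SE 0.0912, edgeR adjusted p = 0.00174). Both isomerases had groups that did not overlap.

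Calr, which encodes calreticulin, a lectin chaperone and calcium store of the ER lumen, had 1599 and 1610 CPM in the cKO-labelled libraries and 1230 and 1186 CPM in WT and rose by 0.41 (SE 0.0905, edgeR adjusted p = 0.00216). Its membrane-bound relative Canx, calnexin, had 839 and 711 CPM against 725 and 716 CPM, where 1 of the cKO-labelled libraries stood at the WT level (0.10, adjusted p = 0.472, and -0.03 without cKO replicate 1). The calls of Pdia3 and Pdia4 held in the 10 alternative fits, and those of Calr (0.38, adjusted p = 0.0970) and Pdia6 (0.38, adjusted p = 0.0987) ended without WT replicate 2.

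Genes of ER-associated degradation, which moves misfolded proteins to the cytosol for the proteasome, split. Herpud1, a stress-induced membrane scaffold of this pathway, had 53.4 and 53.0 CPM in the cKO-labelled libraries and 32.7 and 38.1 CPM in WT and rose by 0.58 (SE 0.116, edgeR adjusted p = 0.000904). Edem1, which marks glycoproteins for disposal, had 289 and 286 CPM against 222 and 235 CPM and rose by 0.33 (SE 0.0933, edgeR adjusted p = 0.0117).

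Sel1l, the adaptor of the ubiquitin ligase that Syvn1 encodes, went the other way. It had 206 and 182 CPM in the cKO-labelled libraries and 260 and 252 CPM in WT, and fell by 0.40 (SE 0.0975, edgeR adjusted p = 0.00466). Syvn1, the ligase itself, was at -0.23 (adjusted p = 0.0993), with both cKO-labelled libraries below WT. The calls of Edem1 (0.28 and 0.37) and Sel1l (-0.38 and -0.43) ended without WT replicate 1 and without WT replicate 2, while that of Herpud1 held in the 10 alternative fits.

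Promoter matches can be set beside the calls of the ER chaperone arm. Of the 10 genes with an ERSE or ERSE-II match, 4 rose and 0 fell, with log2 fold changes from -0.23 (Syvn1) to 0.58 (Herpud1). Of the 8 genes with a window but neither element, 4 rose and 1 fell, from -0.40 (Sel1l) to 0.62 (Pdia3). The median was 0.18 for the genes with a match and 0.28 for those with neither element. The 3 genes without a window, Atf6, Hyou1 and Manf, counted 1 rise (Manf) and 0 falls. Of all tested genes, 14.4% rose and 14.4% fell. Hsp90b1, with 2 ERSE copies, did not pass.

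Per kilobase of exon, with exon lengths by Ensembl identifier from GENCODE M21, Calr had the highest level of the group in WT (419 ± 10.8 CPM per kb, SD, n = 2), followed by Hsp90b1 (333 ± 47.4) and Atf4 (283 ± 6.86). Atf4 RNA stood in the 98.4th percentile of the tested genes in WT. Eif2ak3 (2.30 ± 0.148 CPM per kb), Eif2ak4 (1.62 ± 0.0501) and Vldlr (0.606 ± 0.0321) had the lowest levels, the last in the 14th percentile. Ppp1r15a went from the 95.5th percentile, at 93.6 ± 4.32 CPM per kb in WT, to 42.8 ± 4.78 CPM per kb in the cKO-labelled libraries.

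Summed over the arm, the ER chaperone genes had 8908 and 8467 CPM in the cKO-labelled libraries and 7344 and 7054 CPM in WT. The ATF4 arm summed to 2389 and 2401 CPM against 2901 and 3049 CPM. In both sums the groups did not overlap, with the cKO-labelled libraries above WT in the former and below in the latter. Groups did not overlap in 63.6% of all tested genes either. Such sums weigh genes by level, as with Slc3a2 of the ATF4 arm (mean of 637 CPM against 834 CPM in WT). By sign, 13 of 20 genes of the ATF4 arm were negative and 7 positive. In the ER chaperone arm 15 of 21 were positive and 6 negative.

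Markers of other cells moved with these groups, and in bulk RNA fewer cells of a type and less RNA per cell cannot be told apart. Of 15 stromal and osteoblast markers, 13 were tested, 12 rose and 0 fell, and the list summed to 1812 to 1905 CPM in the cKO-labelled libraries against 503 to 559 CPM in WT. Bglap had no count in any library and Sp7 none in WT. Of 11 neutrophil markers, 8 were tested, 6 rose and 1 fell (810 to 911 CPM against 486 to 500 CPM), with Ly6g at 0 throughout. Of 10 B and plasma cell markers, 4 were tested and Ebf1 rose, and the list summed to 14.4 to 15.0 CPM against 5.92 to 7.13 CPM. The plasma cell gene Mzb1 had no count in any library.

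Of 10 macrophage markers, 4 rose and 2 fell (6076 to 6124 CPM against 4429 to 4682 CPM), and of 10 osteoclast markers, 7 rose and 2 fell (6248 to 6986 CPM against 4823 to 5102 CPM). The largest part of the macrophage sum was Adgre1, with a mean of 3455 CPM against 2284 CPM in WT. By sign, 5 macrophage markers were positive and 5 negative, with a median log2 fold change of 0.02. Of 8 mast cell and megakaryocyte markers, 4 were tested and 2 rose, and of 6 dendritic cell markers, 3 were tested and 1 fell. Of the T and NK cell markers and the erythroid markers, 0 were tested. The part of these cells in the rises of the ER chaperone arm and the falls of the ATF4 arm was not tested.

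**Figure D5:**
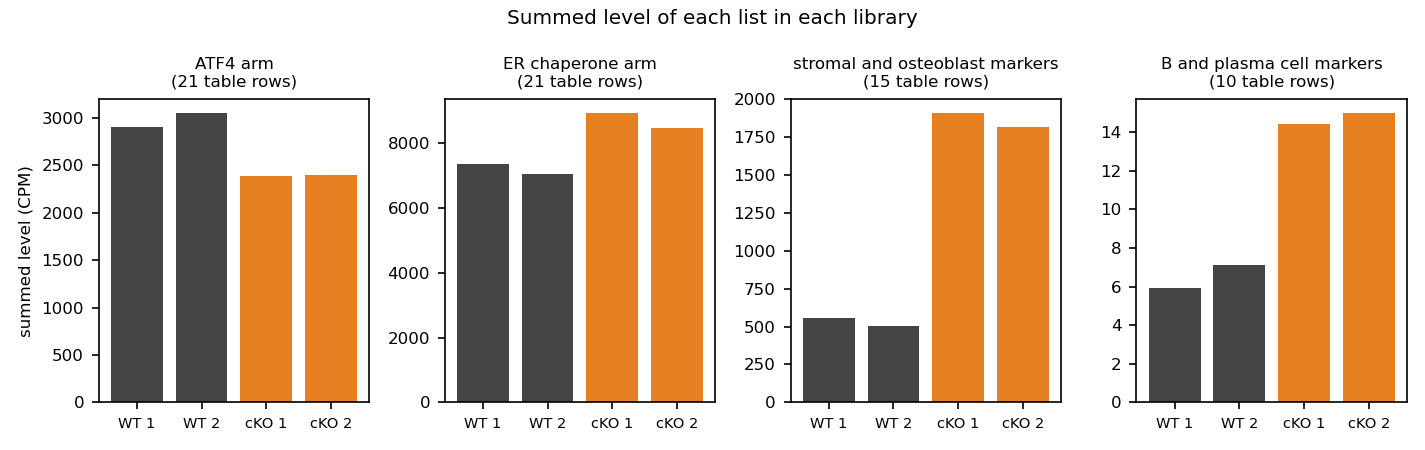
Summed CPM of the ATF4 arm, the ER chaperone arm, the stromal and osteoblast markers and the B and plasma cell markers in each library, with bars from 0. The sums of the ER chaperone arm and of the stromal markers are higher in both cKO-labelled libraries, and the sum of the ATF4 arm is lower in both.

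Other genes of the ATF4 pathway, from a list of 37, went in both directions. Of 35 tested, 6 rose and 9 fell (17.1% and 25.7%, median -0.03), where 14.4% of all tested genes rose and 14.4% fell. The share of rises was thus near that of all genes. Without WT replicate 2, 4 rose and 5 fell, with upper-quartile scaling 11 rose and 5 fell, and DESeq2 called 3 higher and 6 lower. Of all genes, upper-quartile scaling called 19.6% higher and 9.70% lower, and DESeq2 7.45% and 9.45%. Nupr1, a stress-induced chromatin protein, had 61.9 and 59.7 CPM in the cKO-labelled libraries and 138 and 150 CPM in WT and fell by 1.24 (SE 0.104, edgeR adjusted p = 4.90e-08). Slc7a11, the cystine transporter, had 650 and 655 CPM against 1193 and 1281 CPM and fell by 0.92 (SE 0.0919, edgeR adjusted p = 5.11e-07). It pairs with the product of Slc3a2, which fell as well.

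Eif2ak2, the eIF2alpha kinase PKR that senses viral double-stranded RNA and is also induced by interferon, had 90.5 and 73.0 CPM in the cKO-labelled libraries and 161 and 151 CPM in WT. It fell by 0.93 (SE 0.112, edgeR adjusted p = 5.20e-06) while the other 3 kinases did not pass. Slc7a1, the transporter of cationic amino acids, fell by 0.54 (edgeR adjusted p = 0.00109). The rises include low genes, with Pycr1 of proline synthesis at 3.19 and 3.97 CPM against 1.02 and 0.862 CPM (log2 fold change 1.94, SE 0.406) and Aldh1l2 of mitochondrial folate metabolism at 11.9 and 8.43 CPM against 3.17 and 2.98 CPM (1.72, SE 0.252).

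Other genes of ER quality control, 61 with a row of 62 listed, were counted by role. Of 60 tested, 16 rose and 9 fell (26.7% and 15%, median 0.12), where 14.4% of all tested genes rose and 14.4% fell. The share of falls was thus near that of all genes. Of 16 folding factors 7 rose and 1 fell, and of 23 translocation and glycosylation factors 8 rose and 1 fell. Of 13 degradation factors 1 rose and 4 fell, and of 8 sensors and regulators 0 rose and 3 fell. Without WT replicate 2, 3 of the 60 were called higher and 4 lower, and without WT replicate 1, 9 were called higher, while DESeq2 called 10 higher and 7 lower. The shares of all genes in the same fits were 7.36% higher and 8.29% lower without WT replicate 2, 8.94% higher without WT replicate 1, and 7.45% higher and 9.45% lower in DESeq2.

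Kdelr3, a retrieval receptor for ER-resident proteins, had 10.3 and 11.5 CPM in the cKO-labelled libraries and 2.45 and 3.21 CPM in WT and rose by 1.93 (SE 0.237, edgeR adjusted p = 6.71e-06). Ssr4, a subunit of the translocon-associated complex, rose by 0.71 (76.9 and 92.0 CPM against 50.4 and 52.6 CPM), and the isomerase Txndc5 rose by 0.60. Sec62, a translocon partner, fell by 0.56, from 410 and 364 CPM in WT to 275 and 248 CPM. The degradation factors Derl2 (-0.48) and Selenos (-0.47) fell, beside Sel1l. These 6 genes held their calls in the 10 alternative fits, as did Nupr1, Slc7a11, Eif2ak2, Slc7a1, Pycr1 and Aldh1l2.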

How the data were processed

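The authors deposited raw counts in 1 table, not normalized, per the file headers. The submitters' processing notes name fastp 0.20.0, STAR 2.7.9a, featureCounts 2.0 and mm39 (GRCm39), and neither strand setting nor annotation release is stated there. Genes were filtered with filterByExpr (minimum count 10), scaled with TMM factors and tested in R 4.3.3 by the quasi-likelihood F test of edgeR 4.0.16 with group as the sole term and Benjamini-Hochberg adjustment over all tested genes. CPM use the same factors, and the SE is the log2 fold change over the square root of the F statistic. The biological coefficient of variation was 8.28%. As a check for a library deposited more than once, replicate counts were compared with a chi-square, which was 6.16 per gene in WT and 11.2 in the libraries labelled Nat10 cKO, above sampling noise. This does not show that the replicates are separate mice.

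The listed genes and the further lists were chosen with earlier results of these data known. Values per library are given for every called gene and for Atf4, Ddit3, Eif2ak3, Hspa5, Xbp1, Ern1 and Atf6, and of each further pathway list the 6 genes with the smallest p are named. Ddit4, Hsp90b1 and Canx, with values per library, and Ebf1, Bglap, Sp7, Ly6g and Mzb1 were chosen after their values were seen. So were Adgre1, Hspa1a, Hspa1b, Hsp90ab1, Hspa4l, Dnajb2 and Hspa8. Exon lengths matched 11435 of the 11448 tested genes.

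Counts were simulated for this comparison with 200 genes changed, and 11303 genes passed the filter in all. The test recovered 54.39% of 1.5-fold, 77.46% of 2-fold and 95.71% of 4-fold changes and called 5 of 11105 unchanged genes. In the data 3302 genes were called, many more than were changed in the simulation, so these shares may not carry over to the data. Alternatives were RLE and upper-quartile factors, library size only, no filter, DESeq2 1.42.0, a replicate block and leaving out each library.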

Additional observations from a re-analysis of the deposited data

How the results depend on the processing

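The number of all genes called was 3302, against 2114 in DESeq2 and 1837 to 3501 with 1 library left out (1837 without WT replicate 2, 2068 without WT replicate 1). Of all calls 50% were higher, against 66.9% with upper-quartile factors and 61.8% with library size only, which shifted the median of all genes to 0.11 and 0.07 on the log2 scale. As a share of all tested genes, 14.4% were higher in the main fit and 11.6% with no filter. With upper-quartile factors 19.6% were higher and with library size only 17.7%. In the ATF4 arm, 3 genes were higher under each of these scalings and 2 with no filter, its median was 0.0068 and -0.024 with those factors, and with 1 library left out 1 to 3 genes were higher, 3 to 7 lower and the median -0.15 to -0.062. In the ER chaperone arm the median was 0.32 with upper-quartile factors, 0.29 with library size only and 0.21 in DESeq2, and with 1 library left out 4 to 10 genes were higher, 0 to 2 lower and the median 0.13 to 0.23. Of the other ATF4 pathway genes, 11 were higher and 5 lower with upper-quartile factors, 3 were higher in DESeq2, and 4 to 8 were higher and 5 to 10 lower with 1 library left out. Of the other ER quality control genes, 10 were higher in DESeq2, and 3 to 18 were higher and 4 to 10 lower with 1 library left out.

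Signs changed only for genes that were not called in those fits. The median of all tested genes was 0.1053 under upper-quartile scaling and 0.0741 by library size alone, above each value given next for the same scaling. Under upper-quartile scaling the log2 fold change was 0.0726 for Ddit3, 0.0420 for Sesn2, 0.0255 for Shmt2 and 0.0730 for Dnajb9. By library size alone it was 0.0422 for Ddit3, 0.0116 for Sesn2 and 0.0424 for Dnajb9. With 1 library left out, it ran from -0.0983 to 0.0368 for Ddit3, -0.1456 to 0.0227 for Sesn2, -0.1699 to 0.0236 for Shmt2, -0.0964 to 0.0358 for Dnajb9, -0.0474 to 0.2263 for Dnajc3 and -0.0305 to 0.2173 for Canx. Over the named genes and alternative fits, 488 values kept their direction and side of the threshold, 22 gained a call, 17 lost one and 13 changed sign. The replicate block had the replicate number as a term. It called 3 genes of the ATF4 arm higher and 7 lower, and 11 of the ER chaperone arm higher and 2 lower. Of the other ATF4 pathway genes it called 10 higher and 11 lower. In all it called 4301 genes, with 18.6% of the tested genes higher and 19% lower. It also called Ddit4 (0.52), Psat1 (0.29), Xbp1 (0.22), Hsp90b1 (0.22), Asns (-0.26) and Syvn1 (-0.23), which did not pass without it. Same-numbered libraries correlated at 0.149 in their deviations across genes, and with 2 pairs and no label of a shared source the samples share only a number. With 2 libraries a group, a gene that did not pass is not shown to be equal between groups. The cause of these differences between settings was not tested.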

Other observations

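A wider view comes from the annotation in the deposited table, which assigns 170 genes to protein processing in the ER a group chosen with the results in view. Of 153 tested, 29 rose and 30 fell, with a median log2 fold change of -0.01. Of all tested genes, 14.4% rose and 14.4% fell, and the counts here are to be read beside those shares. The 87 tested genes of that pathway that are in none of the lists above counted 11 rises and 20 falls, with a median of -0.08. The genes with the smallest p among them were Map3k5, the stress kinase ASK1 (-1.14, SE 0.139, edgeR adjusted p = 5.84e-06), Dnajc1, an ER membrane co-chaperone (-0.87, SE 0.112, adjusted p = 1.08e-05), and Hsp90aa1, the inducible cytosolic Hsp90 (-0.86, SE 0.114, adjusted p = 1.54e-05). Hsp90aa1 stood at 886 ± 164 CPM (SD, n = 2) in the cKO-labelled libraries against 1611 ± 141 CPM in WT, while Hsp90b1, its relative in the ER, did not pass. The heat-inducible cytosolic chaperones Hspa1b (1.40, adjusted p = 0.000813) and Hspa1a (1.36, adjusted p = 0.00131) rose from 2.48 ± 0.477 and 2.41 ± 0.199 CPM to 6.66 ± 0.0334 and 6.15 ± 0.165 CPM. These are near-identical copies, so reads could be counted under either gene. Other chaperone and co-chaperone genes of the pathway went both ways, among them falls of Hsp90ab1 (-0.41), Hspa4l (-0.54) and Dnajb2 (-0.61) and a rise of Hspa8 (0.25).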
